A study of Mus musculus with 4 samples.

Results

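MPPs and GMPs that both lacked Bcl11a were compared with each other, to ask which differences between a multipotent and a granulocyte-macrophage progenitor are present without this factor. MPPs are multipotent progenitors, sorted here as LSK cells (lineage-negative, Sca-1+, c-Kit+) without CD150. GMPs are granulocyte-macrophage progenitors. Of the 4 arrays in the series, 2 are compared here, 1 of Bcl11a-/- MPPs and 1 of Bcl11a-/- GMPs. The arrays of WT MPPs and WT GMPs serve as the reference for the same contrast with Bcl11a present.

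Fetal liver cells of WT or Bcl11a-/- mouse fetuses had been injected into lethally irradiated (1200 rad) B6.SJL recipients, and donor-derived cells were sorted from the BM 4 weeks later. The labels give the genetic background of all samples as B6.SJL, which is also the recipient strain. The Bcl11a-/- allele lacks the first exon of the gene and is a germline deletion, so every donor cell carried it. RNA came from sorted cells pooled within a donor genotype, from a number of mice that the sources used here do not state, and the labels give neither sex nor adult age. All 4 groups share the irradiated host, the transfer and the time of the sort. Per the paper, MPPs and GMPs of a genotype came from the same BM. In comparisons with WT, genotype therefore cannot be told apart from the pool of mice. With 1 array a group there is no replicate spread, so no difference below carries an error or a test, and each describes these 2 arrays.

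MPPs arise from hematopoietic stem cells, retain all blood lineages as fates and have lost most capacity to renew themselves. Part of the population carries the receptor tyrosine kinase Flt3 and begins to transcribe lymphoid genes. GMPs have lost those fates and transcribe the serine proteases and peroxidase that fill the azurophil (primary) granules of neutrophils. Bcl11a encodes a zinc finger transcription factor known for its need in B cell development and for repression of fetal globin genes in red cells.

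Values are log2 array signals. A difference is the MPP signal minus the GMP signal on that scale, so a negative value means that the gene was higher in GMPs. A gene is called when the difference is over 2-fold, that is beyond 1 log2 unit in size. The 30177 rows of the deposited table gave 19938 genes named by 1 symbol, of which 9841 had a log2 signal of 6 or more on at least one Bcl11a-/- array. In these bulk samples, fewer cells of a type and less RNA per cell cannot be told apart.

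The markers matched the labels. Flt3, the receptor for Flt3 ligand, had a signal of 7.71 in Bcl11a-/- MPPs and 6.46 in Bcl11a-/- GMPs, against 9.31 and 6.75 in WT MPPs and GMPs. Prtn3, which encodes the granule protease proteinase 3, was at 8.69 in Bcl11a-/- MPPs and 12.897 in Bcl11a-/- GMPs, against 11.34 and 13.05 in the WT cells. Mpo, the myeloperoxidase gene, was at 11.34 and 12.13, against 11.84 and 12.13 in WT. The difference in Bcl11a-/- cells was thus 1.24 for Flt3, -4.21 for Prtn3 and -0.79 for Mpo. Mpo was bright on all 4 arrays and within 2-fold in both genotypes. Of 13 measured GMP markers, all 13 had the lower value in Bcl11a-/- MPPs, as did 8055 of all 19938 genes. Among the 13 is Fcgr3, which encodes a protein of the GMP gate, so its direction follows from the sort. Of 13 measured MPP markers 12 had the higher value there, as did 11841 of all 19938 genes. Gata2 was the exception, with 8.49 in Bcl11a-/- MPPs and 8.88 in Bcl11a-/- GMPs. Of these 13 markers 9 had a log2 signal of 6 or more on either Bcl11a-/- array. Tie1, Procr and Tek were higher in Bcl11a-/- MPPs by only 0.17, 0.20 and 0.31.

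Prtn3, Elane, Mpo and Ctsg all encode enzymes of the primary granule, and the bases before their starts are shown because Prtn3, Elane and Ctsg lay together at the GMP end of the comparison. The sequences are the 250 bases upstream of the annotated start on the gene's own strand, from RefSeq on build GRCm38.p6. Capitals mark AGGAAGT, a core of the kind bound by PU.1 and other ETS factors. PU.1 is encoded by Spi1 and directs myeloid development. Prtn3 lies at chr10:79879417-79879666 on the + strand, and Elane, the neutrophil elastase gene next to it, at chr10:79886062-79886311 on the + strand. Mpo lies at chr11:87793534-87793783 on the + strand. Ctsg, which encodes cathepsin G, lies at chr14:56102575-56102824 on the - strand.
Prtn3: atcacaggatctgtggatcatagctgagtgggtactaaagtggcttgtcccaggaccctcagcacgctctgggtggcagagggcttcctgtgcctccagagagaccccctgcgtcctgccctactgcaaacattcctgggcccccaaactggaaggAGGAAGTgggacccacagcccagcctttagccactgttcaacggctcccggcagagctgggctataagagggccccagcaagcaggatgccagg
Elane: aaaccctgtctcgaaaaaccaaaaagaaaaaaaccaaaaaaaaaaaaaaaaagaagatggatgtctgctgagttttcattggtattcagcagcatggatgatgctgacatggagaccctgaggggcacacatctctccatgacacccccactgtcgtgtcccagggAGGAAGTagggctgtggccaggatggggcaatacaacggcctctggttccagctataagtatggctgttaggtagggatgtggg
Mpo: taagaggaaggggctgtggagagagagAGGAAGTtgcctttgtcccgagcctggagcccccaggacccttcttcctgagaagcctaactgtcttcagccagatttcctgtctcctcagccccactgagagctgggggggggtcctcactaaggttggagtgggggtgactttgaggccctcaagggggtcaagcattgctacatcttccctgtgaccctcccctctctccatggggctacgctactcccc
Ctsg: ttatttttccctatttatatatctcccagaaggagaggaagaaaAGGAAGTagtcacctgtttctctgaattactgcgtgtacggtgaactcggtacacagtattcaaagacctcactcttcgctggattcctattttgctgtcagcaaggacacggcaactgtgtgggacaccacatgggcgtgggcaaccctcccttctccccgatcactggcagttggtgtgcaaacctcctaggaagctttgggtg

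The motif began 94 bases before the start in Prtn3, 84 in Elane, 223 in Mpo and 206 in Ctsg. Both strands were searched, over windows from 250 bases before to 50 after a start. Among 13 genes of the primary granule list with a promoter sequence, 8 (61.5%) held AGGAAGT, against 2886 of 27025 genes with a promoter (10.7%). All 4 promoters shown hold it, but that of Ms4a3, with the larger difference of -5.61 in Bcl11a-/- cells, does not. Nkg7, Igsf6, Srgn and Bpi also lack it. The genes over 2-fold higher in Bcl11a-/- GMPs were close to that background, at 108 of 944 (11.4%), and those over 2-fold higher in Bcl11a-/- MPPs stood at 54 of 345 (15.7%). The C/EBP-type core TTGCNNAA, of which no match is also a match to AGGAAGT, was in 3 of the 13 granule promoters (23.1%), in 118 of 944 genes higher in GMPs (12.5%) and in 3298 of 27025 genes overall (12.2%). These motifs were chosen after several had been looked at, and a match is a run of letters, not a bound site.

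Bcl11a itself had a signal of 8.64 in Bcl11a-/- MPPs and 7.77 in Bcl11a-/- GMPs, against 9.89 and 8.599 in WT MPPs and GMPs. Probes outside the deleted exon can still find transcript, so these values check the genotype only weakly. The distributions of the arrays were not equal after the authors' normalization: over genes the SD of the log2 signal was 1.83 in MPPs and 2.01 in GMPs of the Bcl11a-/- pair, and 1.93 and 2.04 in the WT pair. The Bcl11a-/- MPP array thus had the narrowest spread. The Pearson correlation of MPP and GMP signals across genes, which are not independent replicates, was 0.957 in Bcl11a-/- cells and 0.975 in WT cells. Among 1324 rows with the lowest numbers and no annotation, which may be array controls, 41.8% differed by over 2-fold between the Bcl11a-/- arrays and 22.6% between the WT arrays.

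Between Bcl11a-/- MPPs and GMPs 470 genes (2.36% of those measured) were over 2-fold higher in MPPs and 1160 (5.82%) over 2-fold higher in GMPs, 1630 (8.18%) in all. Per probe set with 1 symbol the counts were 591 of 21789 (2.71%) and 1394 (6.4%), 9.11% in all. The same contrast in WT cells gave 266 (1.33%) and 559 (2.8%), 825 (4.14%) in all. The GMP side was the longer in both genotypes. In Bcl11a-/- cells 176 genes were over 4-fold higher in GMPs and 23 over 4-fold higher in MPPs, and beyond 8-fold there were 29 and 2. Most of these calls had signal: 358 of the MPP-higher genes (3.64% of genes with log2 of 6 or more on either array) and 1126 of the GMP-higher genes (11.4%) reached that level. These shares of all genes, and of genes with signal, are the background for the list counts below. The median difference over all genes was 0.10. Quantile normalization of the 2 arrays anew gave 568 genes higher in MPPs and 904 higher in GMPs, so the split depends on how the arrays are scaled.

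**Figure D1:**
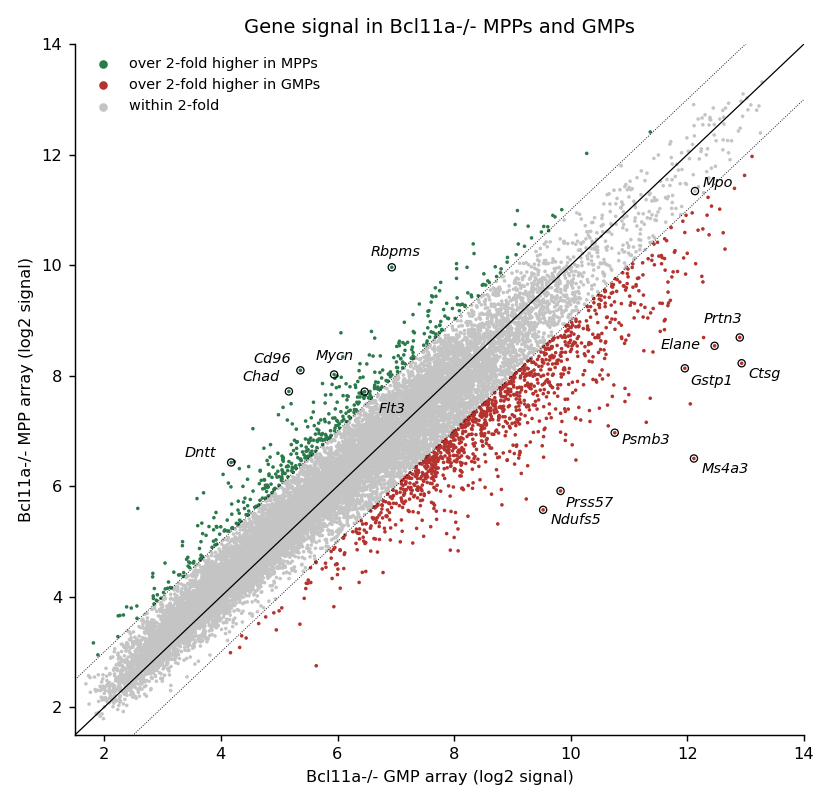
Log2 signal of each of 19938 genes on the Bcl11a-/- GMP array (x axis) and the Bcl11a-/- MPP array (y axis), 1 array a group. Points are genes, the solid line marks equal signal and the dotted lines a 2-fold difference; the 1160 genes higher in GMPs reach farther from the line, to Ms4a3 and Ctsg, than the 470 higher in MPPs, which reach to Rbpms.

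Granule genes were among the largest differences at the GMP end, mixed with genes of other classes. Ftl1 (23.6-fold) lay between Ctsg and Prtn3, and Etfb (17.6-fold) and Ndufs5 (15.5-fold) between Prtn3 and Elane. Ms4a3, a membrane protein gene expressed in GMPs, had a signal of 6.50 in Bcl11a-/- MPPs and 12.11 in Bcl11a-/- GMPs, against 9.18 and 12.22 in the WT cells. It was 48.9-fold higher in GMPs, the largest difference of the genes eligible for naming. Ctsg was at 8.22 in Bcl11a-/- MPPs and 12.93 in Bcl11a-/- GMPs (26.1-fold), and at 10.48 and 12.86 in WT. Prtn3 was 18.5-fold higher in Bcl11a-/- GMPs. Elane was at 8.54 and 12.47 (15.2-fold), and at 10.98 and 12.64 in WT. For Ms4a3, Ctsg, Prtn3 and Elane the GMP arrays of both genotypes were close together, and the Bcl11a-/- MPP array was the lowest of the 4 arrays.

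Prss57, another granule serine protease gene, was 15.1-fold higher in Bcl11a-/- GMPs, with a difference of -3.91 there and -3.35 in WT. Over the whole primary granule list, 10 of 15 measured genes were over 2-fold higher in Bcl11a-/- GMPs, 0 were higher in MPPs and 5 were within 2-fold, with a median difference of -1.84 against 0.10 over all genes. In WT cells 11 of the 15 were over 2-fold higher in GMPs and the median was -1.66. The 13 GMP markers, 5 of which are also on the granule list, had a median of -1.21 in Bcl11a-/- cells, with 8 over 2-fold higher in GMPs, and -1.51 with 9 in WT cells.

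Most transcription factors of the myeloid path differed by less than the granule genes. Gfi1, a repressor needed for neutrophil development, was at 6.32 in Bcl11a-/- MPPs and 7.52 in Bcl11a-/- GMPs, a difference of -1.202 (-1.04 in WT). Spi1 was at 8.57 and 9.601, a difference of -1.03 (-0.62 in WT), which was -0.75 with the arrays quantile normalized anew. Cebpd, a C/EBP factor of maturing granulocytes, was at 6.62 and 7.54, within 2-fold. Of 18 measured factors 2 were over 2-fold higher in Bcl11a-/- GMPs and 0 higher in MPPs, with a median of -0.40 (-0.23 with quantile normalization anew), against 4 and 0 with a median of -0.58 in WT. The member highest in Bcl11a-/- MPPs relative to GMPs was Id2, an inhibitor of E proteins, at 7.34 and 6.62, while in WT it was at 6.18 in MPPs and 7.15 in GMPs.

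**Figure D2:**
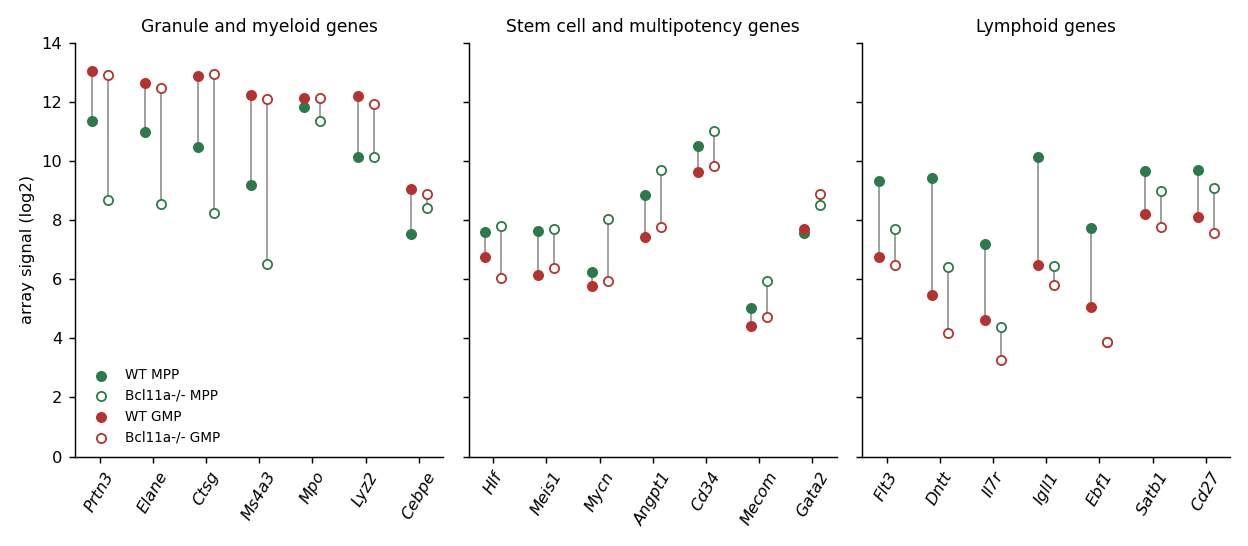
Log2 array signal of 21 genes of granule and myeloid, stem cell and lymphoid groups on each of the 4 arrays, with filled circles for WT and open circles for Bcl11a-/- cells, green for MPPs and red for GMPs, and a line joining the 2 populations of a genotype. The granule genes Prtn3, Elane, Ctsg and Ms4a3 show the longest lines in Bcl11a-/- cells, Mycn and Hlf longer lines in Bcl11a-/- than WT cells, and Igll1, Il7r and Ebf1 longer lines in WT cells; the 2 Bcl11a-/- points of Ebf1 coincide.

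Genes that fold and secrete protein were higher in Bcl11a-/- GMPs. Pdia6, a disulfide isomerase of the endoplasmic reticulum (ER), was at 7.93 in Bcl11a-/- MPPs and 10.38 in Bcl11a-/- GMPs, against 8.44 and 10.18 in WT. Hspa5, the ER chaperone BiP, was at 9.88 and 11.75, against 10.31 and 11.58. Spcs2, a subunit of the signal peptidase, differed by -1.798 in Bcl11a-/- and -1.07 in WT cells. All 21 measured genes of the ER list were lower in Bcl11a-/- MPPs, 14 of them by over 2-fold, with a median of -1.31. In WT cells all 21 were lower in MPPs too, 7 by over 2-fold, with a median of -0.85.

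The lysosome list, which shares cathepsin C with the granule list, followed the same direction. Ctsz (cathepsin Z) was at 7.35 in Bcl11a-/- MPPs and 9.91 in Bcl11a-/- GMPs, Hexa (a hexosaminidase subunit) at 7.47 and 9.36, and Grn (progranulin) at 8.87 and 10.61. In all 6 of 19 lysosome genes were over 2-fold higher in Bcl11a-/- GMPs and 0 higher in MPPs, with a median of -0.50, against 7 and a median of -0.78 in WT. Cd63, a tetraspanin of granule and lysosome membranes, went the other way, at 11.66 in Bcl11a-/- MPPs and 11.31 in Bcl11a-/- GMPs, whereas in WT it was at 9.71 in MPPs and 10.92 in GMPs.

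Glycolytic enzymes were higher in GMPs of both genotypes. Tpi1 (triosephosphate isomerase) was at 7.74 in Bcl11a-/- MPPs and 10.08 in Bcl11a-/- GMPs, Aldoa (aldolase A) at 9.31 and 11.57, and Pkm (pyruvate kinase) at 8.47 and 10.51. The 2 probe sets of Pkm had differences of -3.12 and -0.96, the brighter of them within 2-fold. Of 15 genes 9 were over 2-fold higher in Bcl11a-/- GMPs and 0 in MPPs, with a median of -1.09, and in WT 6 and 0 with a median of -0.84. The glucose transporter genes Slc2a1 and Slc2a3 were within 2-fold, with differences of 0.35 and 0.25 in Bcl11a-/- cells. Fdps, of the mevalonate path, had a difference of -1.86 in Bcl11a-/- cells, and Elovl6, a fatty acid elongase gene, one of 1.19. The cholesterol and fatty acid list held 2 genes over 2-fold higher in GMPs and 1 in MPPs among 18, with a median of -0.012.

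Some genes of stem cells and multipotent cells lay toward the other end, though not among its 12 largest differences. Mycn, a MYC family factor found in stem and early progenitor cells, had a signal of 8.02 in Bcl11a-/- MPPs and 5.94 in Bcl11a-/- GMPs, against 6.24 and 5.75 in WT. The Bcl11a-/- MPP array stood apart from the other 3. Angpt1, the Tie2 ligand, was at 9.69 and 7.77, against 8.86 and 7.44 in WT. Hlf, a bZIP factor of stem cells, was at 7.799 and 6.03, against 7.59 and 6.76 in WT. For Angpt1 and Hlf both MPP arrays lay above both GMP arrays.

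In all 7 of 25 stem cell and multipotency genes were over 2-fold higher in Bcl11a-/- MPPs and 0 higher in GMPs, with a median of 0.45. In WT cells 3 were, with a median of 0.34. The member farthest toward GMPs was Lmo2, an adaptor of the Tal1 complex, at 8.76 in Bcl11a-/- MPPs and 9.38 in Bcl11a-/- GMPs. The 13 MPP markers, 10 of which are also on the stem cell list, had a median of 1.04 with 7 over 2-fold higher in MPPs. That median was 0.54 with 2 in WT.

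Homeobox genes of the Hoxa cluster were also higher in MPPs. Meis1, the Hox partner, was at 7.68 in Bcl11a-/- MPPs and 6.37 in Bcl11a-/- GMPs, a difference of 1.31 (1.51 in WT). Hoxa6 was at 6.27 and 5.06, a difference of 1.22 (0.497 in WT), and Hoxa5 at 6.91 and 5.81, a difference of 1.099 (1.16 in WT), or 0.97 in Bcl11a-/- cells when centred within quintiles of genomic span. Of 16 genes on the list 5 were over 2-fold higher in Bcl11a-/- MPPs and 0 higher in GMPs, against 2 and 0 in WT. The median was 0.54 in Bcl11a-/- cells (0.29 with signals under 5 set to 5) and 0.44 in WT. Hoxb3 was farthest toward GMPs among members with a log2 of 6 or more on either array, with a difference of -0.22.

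The genes with the largest differences toward MPPs were not drawn from a single class. Rbpms, an RNA-binding protein gene, was at 9.96 in Bcl11a-/- MPPs and 6.93 in Bcl11a-/- GMPs (8.16-fold), against 8.93 and 6.76 in WT. Cd96, a receptor of T and NK cells, was at 8.09 and 5.36 (6.64-fold), against 7.26 and 5.31 in WT. Both were high in the MPPs of both genotypes. Chad, which encodes the matrix protein chondroadherin, was at 7.71 and 5.17 in the Bcl11a-/- cells but at 5.24 and 5.04 in WT, high on the Bcl11a-/- MPP array alone. C1qc, a complement chain gene, behaved alike, at 7.42 and 5.07 against 6.04 and 5.56.

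Gimap7, a lymphocyte GTPase gene, differed by 2.49 in Bcl11a-/- and 1.77 in WT cells. Lax1, a membrane adaptor of lymphocyte receptor signaling, differed by 2.29 and 0.81. Tox, an HMG box factor of lymphoid development, differed by 2.25 and 1.68. Tet1, which oxidizes 5-methylcytosine, differed by 2.22 as the mean of 3 probe sets, which ranged from 1.43 to 2.697, and by 1.45 in WT. Nlrc3, an NLR family gene, differed by 2.11 and 1.55. These 5 genes were higher in MPPs of both genotypes.

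Of 23 lymphoid priming genes 8 were over 2-fold higher in Bcl11a-/- MPPs than in Bcl11a-/- GMPs, and 15 in the WT pair. The list holds Flt3, Cnn3, Dntt, Il7r and Blnk, which the paper picked out on these arrays for their change in Bcl11a-/- MPPs. The smaller Bcl11a-/- count and list median are therefore partly set by the choice of members. Dntt, terminal transferase, was at 6.43 in Bcl11a-/- MPPs and 4.18 in Bcl11a-/- GMPs, against 9.44 and 5.46 in WT. It was 4.76-fold higher in Bcl11a-/- MPPs, and its Bcl11a-/- MPP signal lay between those of WT GMPs and WT MPPs. Cd27, a TNF receptor family member, was at 9.08 and 7.55, against 9.69 and 8.11, so that its differences of 1.53 and 1.58 lay side by side. Il7r, the interleukin 7 receptor chain, was at 4.39 and 3.28, against 7.19 and 4.62, and with signals under 5 set to 5 its Bcl11a-/- difference was 0. Flt3 was over 2-fold higher in Bcl11a-/- MPPs, with a difference of 1.24 against 2.57 in WT.

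None of the 23 was over 2-fold higher in Bcl11a-/- GMPs, and the list median was 0.61 in Bcl11a-/- and 1.29 in WT cells. Lax1, also on this list, had the larger difference in Bcl11a-/- cells. Among members with a log2 of 6 or more on either array, those lowest in Bcl11a-/- MPPs relative to GMPs were Cnn3, a calponin, with a difference of -0.19 (1.36 in WT) and Il12a, the p35 chain of interleukin 12, with -0.14 (0.63 in WT).

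Most B lineage genes were dim on both Bcl11a-/- arrays, with 5 of 18 reaching a log2 signal of 6 on either. Of all genes 8.18% were over 2-fold apart between these arrays, 2.36% higher in MPPs and 5.82% higher in GMPs. Ebf1, a factor that specifies B cells, was at 3.89 in Bcl11a-/- MPPs and 3.88 in Bcl11a-/- GMPs, against 7.72 and 5.04 in WT. Igll1, the lambda 5 chain of the pre-B cell receptor, was at 6.44 and 5.82, against 10.14 and 6.49 in WT. Vpreb1, its partner chain, was at 6.32 and 5.29, against 10.57 and 7.01. In each case the WT MPP array was the highest of the 4. Cd79b, which encodes the Ig-beta signaling chain, differed by -1.12 in Bcl11a-/- and -0.23 in WT cells. Of 18 B lineage genes 1 was over 2-fold higher in Bcl11a-/- MPPs (Vpreb1) and 1 higher in GMPs (Cd79b), with a median of 0.31, against 8 and 0 with a median of 0.94 in WT. With the arrays quantile normalized anew neither was over 2-fold, at 0.95 for Vpreb1 and -0.96 for Cd79b. The median was 0.17 with that normalization, and 0.62 over the 5 genes that reached a log2 of 6.

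T and NK genes were dim, with 4 of 16 at log2 of 6 or more on either Bcl11a-/- array. Runx3, a Runt factor also active in myeloid and dendritic cells, was at 9.97 in Bcl11a-/- MPPs and 8.705 in Bcl11a-/- GMPs, against 9.10 and 8.72 in WT. Cd3d was at 6.29 and 5.05, and Thy1, which was within 2-fold (0.96) when centred on the median, at 7.59 and 6.54. All 16 had the higher value in Bcl11a-/- MPPs, 3 by over 2-fold, with a median of 0.70 that was 0.26 with signals under 5 set to 5. In WT the median was 0.27 with 2 over 2-fold. Dim genes as a whole leaned the same way, with median differences between the Bcl11a-/- arrays of 0.17 to 0.19 over the genes with a mean log2 signal under 6.

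**Figure D3:**
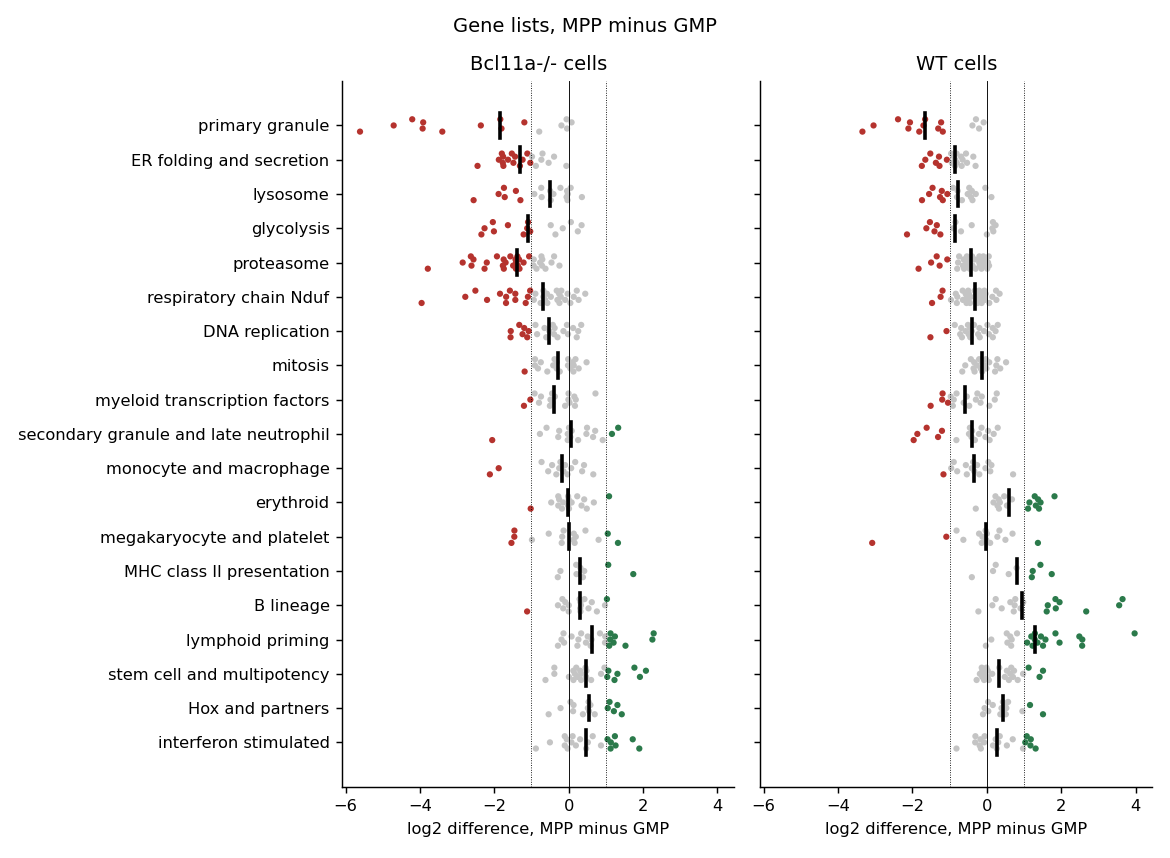
Log2 difference, MPP minus GMP, of each measured gene of 19 lists in Bcl11a-/- cells (left) and WT cells (right), 1 array a group. Points are genes, red if over 2-fold higher in GMPs, green if over 2-fold higher in MPPs and grey within 2-fold, and black bars are list medians; the proteasome median is -1.40 on the left and -0.42 on the right, and the B lineage median 0.31 and 0.94.

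Of 9 measured genes of MHC class II presentation 2 were over 2-fold higher in Bcl11a-/- MPPs and 0 in GMPs, against 4 and 0 in WT. Cd74, the invariant chain, was at 9.96 in Bcl11a-/- MPPs and 8.22 in Bcl11a-/- GMPs, a difference of 1.74 (1.21 in WT). H2-Ab1, an MHC class II beta chain, was at 9.86 and 8.79, a difference of 1.06 (1.75 in WT), or 0.97 in Bcl11a-/- cells once centred on the median of all genes. The list median was 0.32 in Bcl11a-/- and 0.80 in WT cells. H2-DMa and Ctss (cathepsin S) had the lower value in Bcl11a-/- MPPs, with differences of -0.29 and -0.22. The dendritic cell list, which shares 4 of these genes, had 3 of 19 over 2-fold higher in Bcl11a-/- MPPs and 1 higher in GMPs. Its median was 0.42, and 0.00013 with signals under 5 set to 5. The gene higher in GMPs was Bst2 (tetherin), at 7.86 in Bcl11a-/- MPPs and 9.55 in Bcl11a-/- GMPs, while WT MPPs and GMPs were at 9.65 and 9.44.

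Of 21 interferon-stimulated genes 7 were over 2-fold higher in Bcl11a-/- MPPs and 0 higher in GMPs, with a median of 0.47, and 5 and 0 with a median of 0.27 in WT. Ifi205, of the HIN-200 family, was at 6.75 in Bcl11a-/- MPPs and 4.85 in Bcl11a-/- GMPs, Ifi27l2a at 9.33 and 7.61, and Ifi203 at 9.496 and 8.23. Among immediate early genes 1 of 19 was over 2-fold apart, Dusp1, a MAP kinase phosphatase gene, at 10.02 and 11.56. The median of that list was 0.17 in Bcl11a-/- and -0.12 in WT cells. None of 14 stroma and endothelium genes was over 2-fold apart in either genotype, and 3 of the 14 reached log2 of 6 on a Bcl11a-/- array. Between the Bcl11a-/- arrays 8.18% of all genes were over 2-fold apart, 2.36% higher in MPPs and 5.82% higher in GMPs.

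Proteasome and respiratory chain genes differed more in Bcl11a-/- than in WT cells, and in the same direction. Psmb3, a proteasome beta subunit, was at 6.97 in Bcl11a-/- MPPs and 10.75 in Bcl11a-/- GMPs, against 9.92 and 10.54 in WT, with its 2 probe sets at differences of -4.86 and -2.71 in Bcl11a-/- cells. Psma5 differed by -2.85 in Bcl11a-/- and -1.27 in WT cells, and Psmb7 by -2.63 and -1.84. All 34 proteasome genes were lower in Bcl11a-/- MPPs, 23 by over 2-fold, with a median of -1.40, whereas in WT cells 5 were over 2-fold lower and the median was -0.42. Ndufs5, of respiratory complex I, was at 5.57 and 9.53, against 9.42 and 9.96 in WT. Of 35 complex I genes 13 were over 2-fold higher in Bcl11a-/- GMPs and 0 in MPPs, with a median of -0.68 (-0.396 with quantile normalization anew), against 3 and -0.32 in WT.

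The same holds for several of the largest single differences. Gstp1 (glutathione S-transferase) was at 8.13 in Bcl11a-/- MPPs and 11.96 in Bcl11a-/- GMPs, against 11.38 and 11.74 in WT. Pfdn5, a prefoldin subunit, was at 7.77 and 10.93, against 10.96 and 10.93. Selenow, a small selenoprotein gene, was at 7.59 and 11.36, against 9.91 and 10.81. For each of these 3 genes the Bcl11a-/- MPP array was the lowest of the 4 arrays by over 2 log2 units. Ftl1 (ferritin light chain), Etfb (an electron transfer flavoprotein subunit) and Tomm5 (of the mitochondrial import pore) also lay among the 12 largest, at 23.6-fold, 17.6-fold and 12.3-fold. Ftl1 belongs to a family with near-identical copies, so its probes may not be specific.

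Signal and genomic span moved with these differences. The share of genes over 2-fold higher in Bcl11a-/- GMPs was higher at higher mean signal, from 0.124% under a log2 of 4 to 15.3% at 8 to 9, 21.4% at 9 to 10 and 26.04% over 10, where the WT shares were 0.0622%, 7.09%, 9.10% and 7.86%. The share over 2-fold higher in MPPs stayed between 1.03% and 3.59% in Bcl11a-/- cells. Among 3053 protein-coding genes with a mean log2 of 8 or more, the median difference in Bcl11a-/- cells went from -0.60 in the quintile with the shortest genomic span to 0.18 in the longest. In WT cells it went from -0.28 to 0.13. Genes over 2-fold higher in GMPs made up 33.2% of the shortest and 4.75% of the longest quintile in Bcl11a-/- cells, and 12.3% and 2.13% in WT. Across these genes the Spearman correlation of span with the difference was 0.366 in Bcl11a-/- and 0.288 in WT cells. The part of span, of signal and of the narrower spread of the Bcl11a-/- MPP array in the proteasome, complex I and granule differences was not tested.

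**Figure D4:**
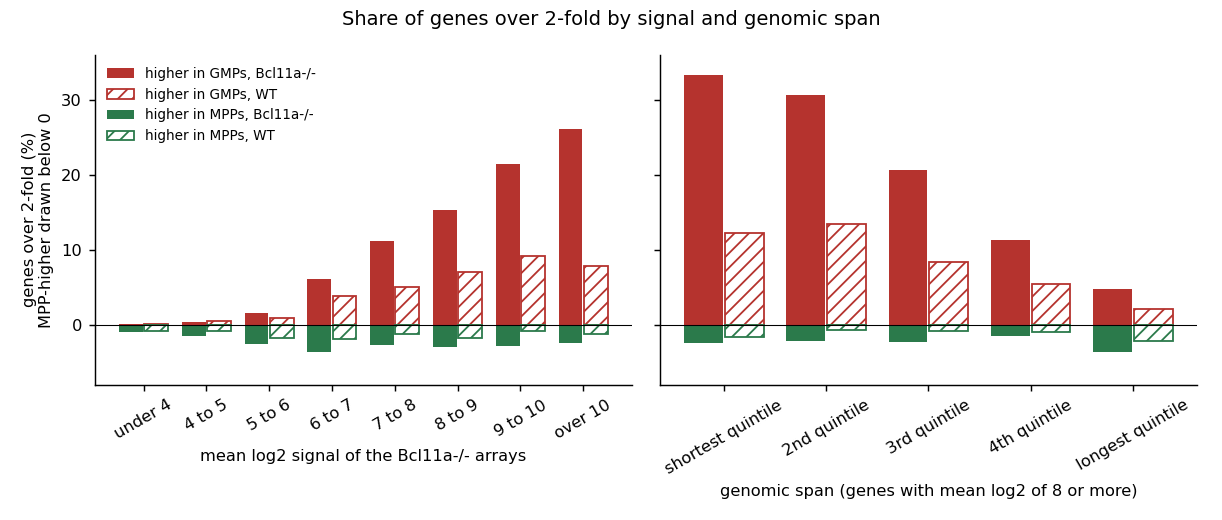
Share of genes over 2-fold higher in GMPs (red, above 0) or in MPPs (green, drawn below 0) by mean log2 signal of the Bcl11a-/- arrays (left) and by quintile of genomic span among genes with a mean log2 of 8 or more (right), with solid bars for Bcl11a-/- and hatched bars for WT cells. In Bcl11a-/- cells the GMP-higher share climbs with signal to 26.04% and is 33.2% in the shortest and 4.75% in the longest quintile.

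Several mature neutrophil genes were bright on every array, while others of the list, such as Padi4 (6.30 and 6.01 in WT MPPs and GMPs), were not. S100a8, a calprotectin chain gene named after its values were seen, was at 12.97 in Bcl11a-/- MPPs and 12.92 in Bcl11a-/- GMPs, against 13.03 and 12.998 in the WT pair. Camp (cathelicidin) was at 11.42 and 12.19, against 11.38 and 12.59. Over the 18 genes of the late neutrophil list the signal ran from 7.06 to 12.97 with a median of 9.53 in Bcl11a-/- MPPs and from 6.15 to 12.95 with a median of 9.57 in Bcl11a-/- GMPs. Cxcr2, the chemokine receptor of neutrophils, was at 9.84 in Bcl11a-/- MPPs and 8.51 in Bcl11a-/- GMPs, against 8.82 and 8.63 in WT, and Mmp8 at 10.49 and 9.33, against 8.95 and 8.99. These 2 were over 2-fold higher in Bcl11a-/- MPPs, and Anxa1 (annexin A1) was over 2-fold higher in GMPs, at 8.26 and 10.32.

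The list median was 0.06 in Bcl11a-/- cells (0.44 with quantile normalization anew, 0.37 centred by lowess) and -0.40 in WT cells, where 5 of the 18 genes were over 2-fold higher in GMPs and 0 in MPPs. Among genes eligible for naming, those whose Bcl11a-/- difference lay farthest above the WT one included granulocyte genes. Epx, eosinophil peroxidase, was at 7.56 in Bcl11a-/- MPPs and 7.22 in Bcl11a-/- GMPs, against 6.64 and 9.21 in WT. Chil3, a chitinase-like protein gene of neutrophils and macrophages, was at 10.39 and 10.38, against 8.86 and 10.72. Ceacam10, Pilra and Wfdc21 differed by 1.85, 1.79 and 0.77 in Bcl11a-/- cells and by -0.44, -0.24 and -1.24 in WT. Whether mature granulocyte RNA in the sorted cells has a part in the MPP-minus-GMP values was not tested.

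Of 16 monocyte genes 2 were over 2-fold apart, where 1630 of all 19938 genes (8.18%) were. F13a1 (coagulation factor XIII A) was at 6.93 in Bcl11a-/- MPPs and 9.05 in Bcl11a-/- GMPs, and Ly86 (MD-1) at 6.25 and 8.13. These 2 of 16 were over 2-fold higher in Bcl11a-/- GMPs and 0 were higher in MPPs, with a median of -0.18 (-0.075 with quantile normalization anew), against 1 and -0.35 in WT.

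Erythroid genes over 2-fold higher in MPPs than GMPs numbered 8 of 18 in the WT pair and 1 in the Bcl11a-/- pair. Car1 (carbonic anhydrase 1) and Klf1 (an erythroid factor) were named after their values were seen. Car1 was at 12.54 in Bcl11a-/- MPPs and 12.46 in Bcl11a-/- GMPs, against 12.198 and 10.38 in WT. Klf1 was at 8.12 and 8.13, against 7.82 and 6.44. For both genes WT GMPs were the lowest of the 4 arrays. Of 18 genes 1 was over 2-fold higher in Bcl11a-/- MPPs (Car2, at 10.69 and 9.61, and at a difference of 0.99 when centred on the median) and 1 higher in GMPs (Aqp1, which was at -0.83 with quantile normalization anew and -0.91 centred by lowess on signal), with a median of -0.0079, against 8 and 0 with a median of 0.61 in WT. Cldn13, a claudin gene, was at 6.79 and 7.52 in the Bcl11a-/- cells and at 7.84 and 5.77 in WT MPPs and GMPs. The signal of the erythroid list ran from 3.31 to 12.54 in Bcl11a-/- MPPs and from 3.07 to 12.46 in Bcl11a-/- GMPs, and the part of red cell RNA in these pools was not tested.

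Among megakaryocyte and platelet genes, Pf4 (platelet factor 4) was at 6.05 in Bcl11a-/- MPPs and 7.59 in Bcl11a-/- GMPs, against 4.85 and 7.94 in WT. Thbs1 (thrombospondin 1) was at 8.099 and 6.77. Of 16 genes 3 were over 2-fold higher in Bcl11a-/- GMPs and 2 in MPPs, with a median of -0.0039. Of 16 mast cell, basophil and eosinophil genes 3 were over 2-fold higher in Bcl11a-/- GMPs and 1 in MPPs, with a median of 0.05. Prg2 (eosinophil major basic protein) was at 9.17 in Bcl11a-/- MPPs and 11.15 in Bcl11a-/- GMPs, and Hdc (histidine decarboxylase) at 7.93 and 9.598.

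Receptors and adhesion molecules divided in both directions, as did genes as a whole. Of all genes, 2.36% were over 2-fold higher in Bcl11a-/- MPPs and 5.82% in Bcl11a-/- GMPs. Among genes with log2 of 6 or more on either Bcl11a-/- array these shares were 3.64% and 11.4%. Ifngr1, the ligand-binding chain of the interferon gamma receptor, was at 7.69 in Bcl11a-/- MPPs and 9.72 in Bcl11a-/- GMPs. Tnfrsf1a, a TNF receptor, was at 7.89 and 9.02, and Csf2ra, the alpha chain of the GM-CSF receptor, at 8.35 and 9.45. These 3 of 32 cytokine receptors were over 2-fold higher in GMPs, and Cd27, Flt3 and Il7r over 2-fold higher in MPPs, with a list median of 0.10. With the arrays quantile normalized anew Tnfrsf1a (-0.89), Csf2ra (-0.84) and Il7r (0.93) were within 2-fold. Vcam1, an adhesion receptor, was at 5.54 in Bcl11a-/- MPPs and 7.95 in Bcl11a-/- GMPs, against 5.25 and 8.49 in WT. Of 27 chemokine receptor and adhesion genes 3 were over 2-fold higher in Bcl11a-/- GMPs and 2 in MPPs (Cxcr2, and Cd34 at 11.002 and 9.85), with a median of 0.13.

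Some genes encode the proteins by which the cells were sorted, and their differences are no finding. Kit was at 9.62 in Bcl11a-/- MPPs and 9.43 in Bcl11a-/- GMPs. Slamf1, which encodes CD150, was at 4.87 and 5.62, and Fcgr3, one of the Fc receptors of the GMP gate, at 6.597 and 7.91. Ly6a, which encodes Sca-1, was not among the genes measured by 1 symbol.

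DNA replication genes leaned toward GMPs. Gins1 and Gins2, of the replicative helicase, differed by -1.56 and -1.33 in Bcl11a-/- cells and by -1.08 and -0.72 in WT, and Dut, which removes dUTP, by -1.56 and -0.67. Of 23 genes 7 were over 2-fold higher in Bcl11a-/- GMPs and 0 in MPPs, with a median of -0.52, against 2 and -0.41 in WT. Of 20 mitosis genes 1 was over 2-fold apart in Bcl11a-/- cells, Aurkb (Aurora B), at 8.39 in MPPs and 9.58 in GMPs. The mitosis median was -0.28. All 23 replication and all 20 mitosis genes had a log2 of 6 or more on either Bcl11a-/- array. Of all genes at that level 15.1% were over 2-fold apart, and 11.4% were higher in GMPs. Quantile normalization anew put Aurkb at -0.92, the mitosis median at -0.015 and the DNA replication median at -0.22. Among G1 genes and cell cycle inhibitors Cdk4 differed by -1.05 and Foxo3, a forkhead factor of quiescent cells, by 1.07, and the list median was 0.31. Cdk4 stood at -0.61 with quantile normalization anew and Foxo3 at 0.98 when centred on the median. In ribosome biogenesis 4 of 19 genes were over 2-fold higher in Bcl11a-/- GMPs, led by Fbl (fibrillarin, 2 probe sets) at -1.53, against 0 in WT. The list's median signal was 8.56 in Bcl11a-/- MPPs and 8.997 in Bcl11a-/- GMPs. Of all genes with a mean log2 of 8 to 9 on these arrays, 15.3% were over 2-fold higher in Bcl11a-/- GMPs and 7.09% in WT GMPs. The median difference of the list was -0.36 in Bcl11a-/- and 0.07 in WT cells. That Bcl11a-/- median was -0.095 with quantile normalization anew, -0.19 centred by lowess and -0.12 with the brightest probe set of each gene. Nop56, of the box C/D snoRNP and another of the 4, was within 2-fold in the first 2 of these settings, at -0.69 and -0.81.

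The contrasts in Bcl11a-/- and WT cells share no array, so the genes called can be set side by side. Of the genes over 2-fold higher in GMPs, 397 were called in both genotypes, which is 34.2% of the Bcl11a-/- list and 71.0% of the WT list. Of all genes 2.8% were called higher in GMPs in WT cells and 5.82% in Bcl11a-/- cells. With the 4 arrays quantile normalized anew 281 were shared, 29.8% of the Bcl11a-/- list and 65.5% of the WT list. Of the genes over 2-fold higher in MPPs, 106 were called in both (119 with that normalization), 22.6% of the Bcl11a-/- list and 39.8% of the WT list. The shares of all genes called higher in MPPs were 1.33% in WT and 2.36% in Bcl11a-/- cells. The median Bcl11a-/- difference of the WT lists was -1.38 for genes higher in GMPs and 0.88 for genes higher in MPPs. In the other direction, the median WT difference of the Bcl11a-/- lists was -0.78 and 0.59. Of the 266 WT MPP-higher genes 28 did not have the higher value in Bcl11a-/- MPPs, which is 10.5%, where 40.6% of all genes did not. Of the 559 WT GMP-higher genes 11 (1.97%) did not have the higher value in Bcl11a-/- GMPs, where 59.6% of all genes did not.

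Ms4a3, Ctsg, Prtn3, Elane and Prss57 were among the genes called higher in GMPs in both genotypes, and Rbpms, Cd96, Gimap7, Dntt and Tox among those called higher in MPPs in both. Among genes eligible for naming, those whose Bcl11a-/- difference lay farthest below the WT difference were Gstp1, Ndufs5, Pfdn5 and Psmb3, then Igll1, Selenow, Cldn13 and Ebf1. In the first 4 the WT arrays were within 2-fold, and in Igll1, Cldn13 and Ebf1 the WT MPP signal exceeded the WT GMP signal by 3.65, 2.07 and 2.67. With 1 array a group the difference between the genotypes was not tested.

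**Figure D5:**
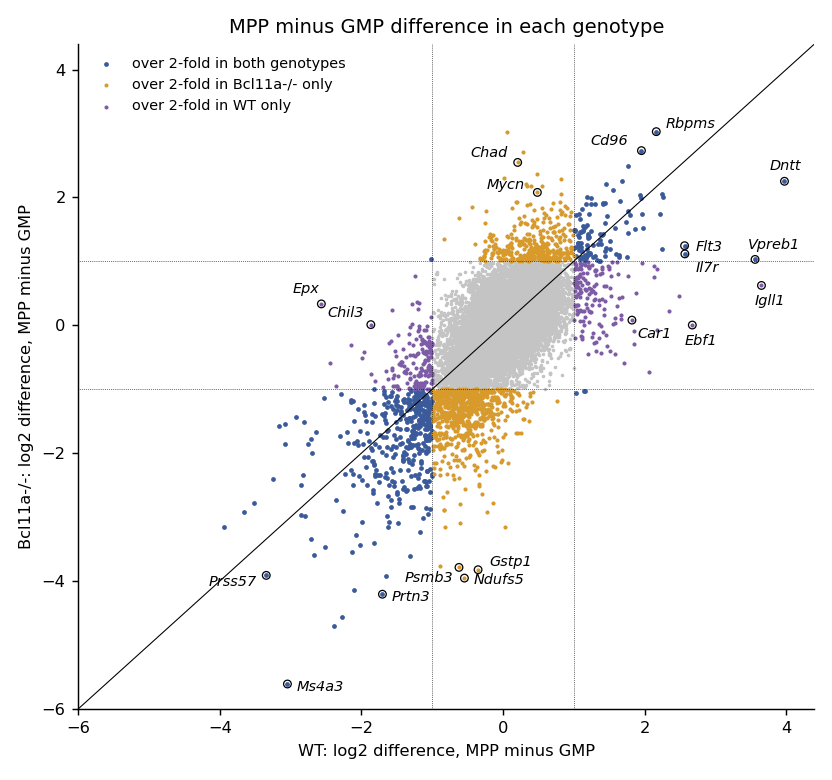
Log2 difference, MPP minus GMP, of each of 19938 genes in WT cells (x axis) and in Bcl11a-/- cells (y axis), from 4 arrays with none shared. Points are genes, coloured by whether the difference is over 2-fold in both genotypes or in one, and the diagonal marks equal differences; Gstp1, Ndufs5 and Psmb3 lie near 0 on the WT axis and near -4 on the Bcl11a-/- axis, and Igll1 and Ebf1 lie near 0 to 1 on the Bcl11a-/- axis and beyond 2 on the WT axis.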

How the data were processed

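Gene expression was measured on 4 one-color arrays, 1 each of Bcl11a-/- MPPs, Bcl11a-/- GMPs, WT MPPs and WT GMPs. The values deposited by the authors are log2 signals per probe set. Per the labels and the methods, biotin-labeled cRNA was made by amplification, and probes were summarised by RMA with quantile normalization in ArrayStar, of a version the sources used here do not state. Quantile normalization can hide a change in total mRNA per cell. Scanner files and scan batches were not used here, and precision is limited by the number of arrays.

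Of 30177 rows, 21789 had 1 gene symbol in the platform annotation, 1621 had several and 6767 had none. Entrez identifiers tied 21698 of these to a RefSeq gene table, which changed 0 symbols. Probe sets of 1 gene were averaged (999 of 19938 genes had several). MPP-minus-GMP differences were taken per gene, and over 2-fold was called. With 1 array a group no test was run. There were 32 gene lists, holding 540 measured genes. Genes were named by rule: the 12 largest in each direction and up to 3 in each direction per list (log2 of 6 or more on either array), markers and sort genes, and the 8 in each direction farthest from the WT difference. From the first and last kinds predicted and Riken genes, antigen receptor segments and small RNAs were left out. So were the receptors of olfaction and the vomeronasal organ. The last kind needed a log2 of 6 or more on any of the 4 arrays. The members and lists were chosen with earlier results of these data known. Alternatives were a signal filter, a floor at 5, 4 ways of scaling or centring, the brightest probe set, probe sets as units, other folds, and other definitions of a call shared with WT. Counting and centring were tested on simulated data. Python 3.11.15, numpy 2.4.6, pandas 2.3.3 and statsmodels 0.14.6 were used.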

Additional observations from a re-analysis of the deposited data

Results flagged for a closer look

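In 4 genes MPPs and GMPs differed by over 2-fold in opposite directions in the 2 genotypes. With 1 array a group this difference between genotypes was not tested. Which genes do so depended on the scaling: with the 4 arrays quantile normalized anew Gm15401 and Wfdc21 were the 2 such genes, and Aqp1, Crip1 and Inka1 were within 2-fold in Bcl11a-/- cells, at -0.85, -0.66 and -0.93, and with signals under 5 set to 5 Gm15401 was within 2-fold in WT cells, at -0.999. Aqp1, the water channel of red cells, had a difference (MPP minus GMP) of -1.02 in Bcl11a-/- and 1.15 in WT cells. Its signal was 7.503 in Bcl11a-/- MPPs and 8.52 in Bcl11a-/- GMPs, against 7.75 and 6.602 in the WT pair, so the GMP arrays were the farther apart. Crip1, a LIM domain protein gene, had differences of -1.06 and 1.02, with signals of 9.65, 10.71, 11.74 and 10.71 in that order. Inka1, an inhibitor of the kinase PAK4, had differences of -1.03 and 1.16, with signals of 6.72, 7.74, 8.53 and 7.37. Gm15401, a predicted gene, had differences of 1.04 and -1.02, with signals of 6.86, 5.82, 4.98 and 5.999. In Crip1, Inka1 and Gm15401 the MPP arrays were the farther apart.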

How the results depend on the processing

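Thresholds other than 2-fold gave 2169, 81 and 23 genes higher in Bcl11a-/- MPPs and 2357, 373 and 176 higher in Bcl11a-/- GMPs at 1.5-fold, 3-fold and 4-fold. Centring within quintiles of genomic span, chosen after seeing the data, gave 301 higher in MPPs. MPP-higher genes were 28.8% of the calls, and 38.6% with the 2 arrays quantile normalized anew, 19.9% centred on the median, 19.3% centred by span and 31.3% centred by lowess.

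List medians that passed to the other side of 2-fold were MPP markers (0.95 with signals under 5 set to 5, 0.94 centred on the median, 0.93 centred by span), glycolysis (-0.99 with quantile normalization anew), and T and NK genes (1.15 with log2 of 6 or more). Medians near 0 moved: sort surface genes to 0 with the floor, and late neutrophil genes to -0.032 centred on the median and -0.0027 centred by span. Erythroid genes moved to 0.11 (quantile) and 0.063 (lowess). Megakaryocyte genes moved to 0.14 (log2 of 6 or more), 0.064 (floor), 0.034 (quantile) and 0.013 (lowess). Mast, basophil and eosinophil genes moved to -0.23, 0 and -0.0071 in the first 3 of these settings, and to -0.047 (median), -0.051 (lowess) and -0.047 (span). Cytokine receptors moved to -0.062 (log2 of 6 or more) and 0 (floor), and cholesterol genes to 0.0201 (quantile) and 0.014 (brightest probe set). The cause was not tested. Of 32 list medians, 16 moved by over 1.5 times with quantile normalization anew, 11 with lowess, 10 when centred on the median, 10 with log2 of 6 or more, 9 with the floor, 8 when centred by span and 2 with the brightest probe set. Examples are late neutrophil genes at 0.44 (quantile) and 0.37 (lowess), T and NK genes at 0.26 (floor), DNA replication at -0.31 (lowess), stem cell genes at 0.74 (log2 of 6 or more) and interferon-stimulated genes at 0.31 (floor).

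Counting a WT difference over 1.5-fold as shared gave 235 MPP-higher and 759 GMP-higher genes, and any WT difference of the same direction gave 420 and 1109. Of 1215 gene values under alternatives, 1157 kept their direction and side of 2-fold, 32 fell within 2-fold (Spi1, Il7r, Vpreb1 and Cd79b among them), 13 passed it and 13 near 0 moved. No called value changed sign. MPPs and GMPs of a genotype came from the same BM. With 1 array a group and no replicate numbers in the labels, no paired analysis was possible.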

Other observations

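A few further genes were among the largest differences toward Bcl11a-/- MPPs. Asb17, an ankyrin repeat and SOCS box gene, had a signal of 6.44 in Bcl11a-/- MPPs and 4.23 in Bcl11a-/- GMPs, against 3.86 and 3.53 in WT MPPs and GMPs. Phf11a, a PHD finger gene, was at 6.21 and 4.04, against 5.63 and 5.08 in WT. In Asb17 only the Bcl11a-/- MPP array reached a log2 signal of 6.

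Among the 1630 genes called between the Bcl11a-/- arrays, 147 had several probe sets, and in 8 of these the probe sets had opposite signs.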
